A study of Rattus norvegicus with 2 samples.

Results

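The circular RNAs (circRNAs) of Rims1 and Rims2 were examined in RNA from the spinal cord of rats, in a model of bone cancer pain (BCP) and in its sham control. A circRNA is a closed molecule made when the spliceosome joins the end of an exon to the beginning of the same or an earlier exon, and what was counted is reads across that back-splice junction. Members were all rows of the deposited table whose gene field named Rims1 or Rims2: 58 of 11599 circRNAs, 10 of Rims1 and 48 of Rims2. The BCP rats had received live Walker256 cells, a rat mammary carcinoma line, in the marrow cavity of the tibia, and the sham rats boiled Walker256 cells by the same operation. Tissue was taken 21 days later from 3 animals per group, and strain (other than the SD rats in which the cells were passaged), sex and age were not given in the sources used here. There was 1 library per group, whether the animals were pooled was not given in the sources used here, and the RNA had been digested with RNase R, which removes linear RNA. With 1 library per group no difference has a replicate check and no test across animals was possible. Each ratio therefore compares these 2 libraries and not the conditions, and all intervals are 95% and cover the counting error of reads only. PCR copies of a molecule were not told apart by molecular identifiers, so the intervals may be too narrow for counts of molecules.

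Rims1 and Rims2 encode RIM proteins, large scaffolds of the presynaptic active zone, the patch of membrane where synaptic vesicles fuse. RIM proteins bind the vesicle protein Rab3, the priming factor Munc13, RIM-binding proteins and calcium channels, and so hold primed vesicles close to the sites of calcium entry. In the spinal cord, release at such zones carries sensory signals to dorsal horn neurons. A circRNA is not the mRNA of its host gene, and the values below say nothing of RIM protein.

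The table held 113033 back-splice reads in sham and 78836 in BCP, so on the CPM scale (reads scaled to the column total) 1 read is worth 8.85 in sham and 12.7 in BCP. The smallest count above 0 was 2 in each library, and an entry of 0 therefore does not show absence. Of 16 neuron markers, 9 hosted a listed circRNA, with 387 reads in sham and 247 in BCP (ratio of CPM 0.915, 0.777 to 1.08). Slc17a6, Slc32a1, Gad1, Gad2 and Chat were among the 7 at 0. Of the neuron marker reads, Elavl3 held 246 in sham and 119 in BCP (ratio 0.694, 0.552 to 0.867). Among the 5 neuron markers with at least 10 reads, the ratio was below 1 for 1, Elavl3. The median log2 ratio (BCP over sham) of these 5 was 0.25. Marker lists of other cells had fewer reads in each library, and more of them in BCP: 23 and 59 reads in sham and BCP for 5 of 9 oligodendrocyte markers, 19 and 42 for 2 of 7 astrocyte markers, 13 and 55 for 3 of 8 microglia and macrophage markers, and 0 and 19 for 2 of 8 ganglion neuron and Schwann cell markers. Mag, Gfap, Aqp4, Csf1r, Cx3cr1, Prph and Scn10a were at 0, as were all 8 skeletal muscle markers. The part of these lists in the results on Rims1 and Rims2 was not tested, and fewer cells of a type cannot be told apart from less RNA per cell in such tissue.

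Rims2 hosted more circRNAs than any other of 3915 host genes in the table. It had 48, the next genes, Stk39 and Nupr1, had 24 each (the 24 of Nupr1 cover 1011523 bp, so that name is doubtful), and Atrnl1 and Ttll5 followed with 21 each. The median host had 2. In reads Rims2 ranked 6, with 879 in sham and 548 in BCP, close to Stk39 with 829 and 581. Rims1 had 10 circRNAs with 281 and 123 reads and ranked 39 by reads. Rims2 thus stood apart by the number of different circles more than by their sum.

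**Figure D1:**
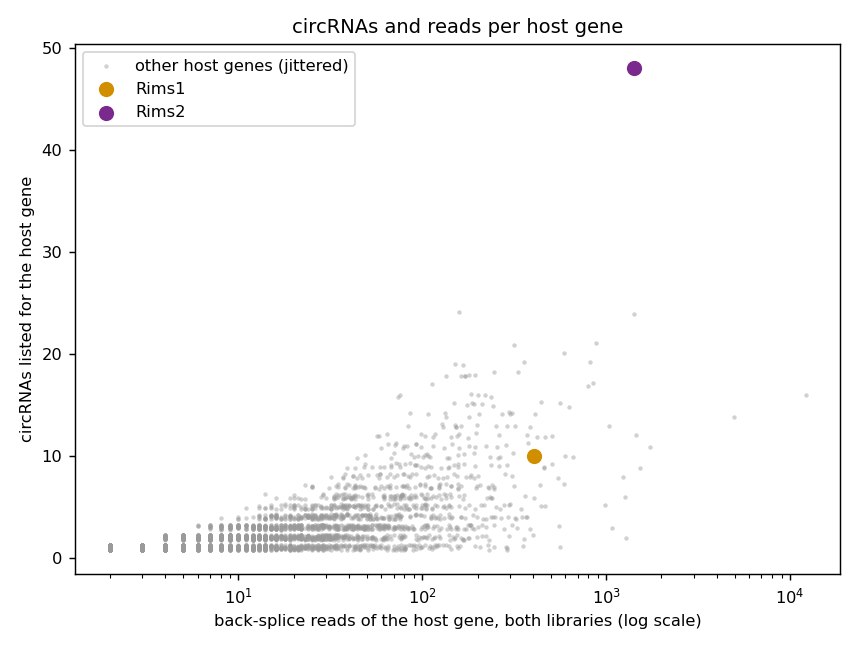
Back-splice reads of each host gene over both libraries (x axis, log scale) against the number of its circRNAs (y axis, jittered for the other genes). Rims2, with 48 circRNAs, lies above all other host genes, the next of which have 24, and Rims1 lies at 10.

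Summed over its circRNAs, Rims1 was 1.59-fold lower in BCP (1.28 to 1.99), at 2486 CPM in sham (2204 to 2794) and 1560 CPM in BCP (1297 to 1861). Rims2 was 1.12-fold lower (1.00 to 1.25), at 7776 CPM in sham (7273 to 8306) and 6951 CPM in BCP (6383 to 7556). Neither met the size rule used here, a 2-fold or larger difference whose interval excludes 1, which 17.4% of the 2159 host genes with at least 10 reads met (8.75% higher and 8.62% lower in BCP). The Rims1 ratio was 0.702 of the Rims2 ratio (conditional exact interval 0.549 to 0.895), so the share of Rims2 in the reads of both genes was 75.8% in sham (73.2 to 78.2) and 81.7% in BCP (78.5 to 84.5). From the circRNAs listed in both libraries alone, the BCP over sham ratio was 0.741 (0.590 to 0.927) for Rims1 and 0.917 (0.820 to 1.02) for Rims2.

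Of the 58 circRNAs, 32 were listed in both libraries, 17 in sham alone and 9 in BCP alone. The sham column held 1.43 times as many back-splice reads as the BCP column. The share in both was 55.2%, beside 41.2% over the whole table, but the members had more reads, with a median of 10 beside 5. With at least 10 reads, 27 of 29 members and 3244 of 3502 circRNAs of the table were listed in both. Under 10 reads these were 5 of 29 and 1535 of 8097, so at like reads the members were listed in both about as often as the table. Reads of circRNAs listed in a single library made up 9.48% of the member reads in sham and 4.17% in BCP, beside 15.9% and 12.4% over the table. These shares were not matched for reads per circRNA. Spans were long: the genomic distance from start to end had a median of 58222 bp for Rims2 and 40747 bp for Rims1, beside 9708 bp over all circRNAs. At least 100 kb was spanned by 8 of 48 in Rims2 (16.7%) and 0 of 10 in Rims1, beside 3.01% of all circRNAs. A span includes any introns, so it is not the length of the circle.

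By the size rule, 2 of the 29 members with 10 or more reads in total were higher in BCP and 3 lower, beside 7.82% and 7.42% of the 3502 circRNAs with as many reads in the whole table. For Rims2 these were 2 higher and 1 lower of 22, and for Rims1 0 higher and 2 lower of 7. With TMM scaling, which sets the libraries by the bulk of circRNAs, 5 members were lower and 2 higher, beside 312 lower and 228 higher of the 3502 (260 and 274 when scaled to column totals). The 2 added were both of Rims2, from 78482254 to 78520474 (45 and 17 reads in sham and BCP) and from 78520233 to 78574310 (12 and 2). Summed by site, 0 of 21 starts and 0 of 15 ends with 10 or more reads were higher in BCP, and 1 start and 1 end were lower. The lower starts numbered 3 with median-of-ratios scaling and 4 with TMM scaling, and the lower ends 1 with each. Over all sites of the table with as many reads, at column totals, 8.3% of starts were higher and 7.81% lower, and 8.25% of ends were higher and 8.65% lower. The shares over all sites were not counted with the other scalings, which lower every BCP over sham ratio. The 3 and 4 lower starts therefore cannot be set beside these shares. Scaled to column totals, the members met the rule about as often as the table did.

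**Figure D2:**
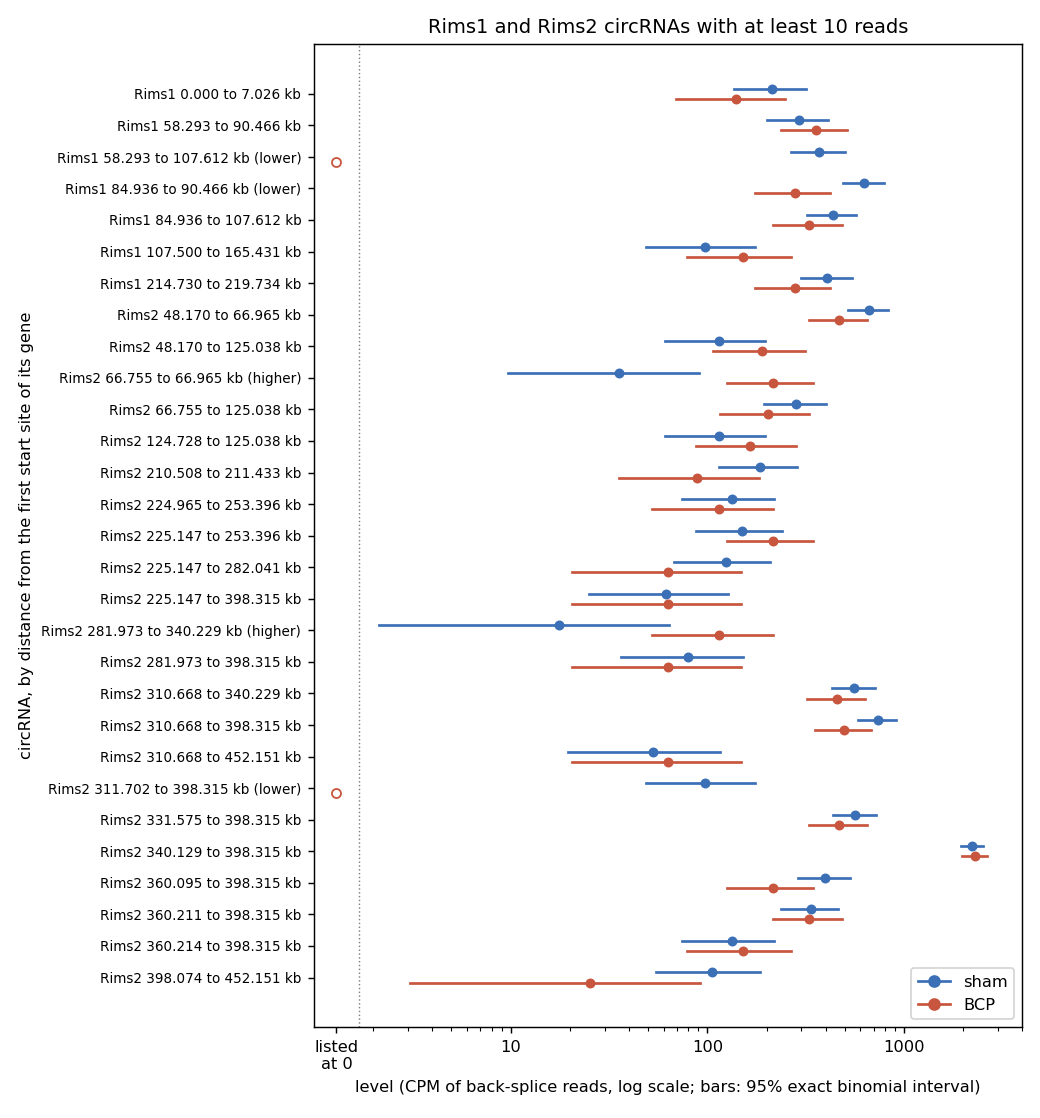
Levels (x axis, CPM, log scale) of the 29 circRNAs with 10 or more reads in sham and BCP, named by distance from the first start site of their gene; points are levels, lines 95% exact binomial intervals, and open circles circRNAs listed at 0. Most pairs of intervals overlap, and the 5 circRNAs that met the size rule carry their direction in the label.

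Circles did not cover Rims2 without gaps. Its back-splice sites lay from 78122159 to 78574310 on chromosome 7 (build rn6, as all positions here), in 3 groups that no circRNA bridged. The first (78122159 to 78281841) held 13 circRNAs with 161 and 109 reads in sham and BCP. After 50825 bp free of back-splices came a single circRNA of 926 bp (78332667 to 78333592) with 21 and 7 reads. The last (78347124 to 78574310) held 34 circRNAs with 697 and 432 reads, 79.3% of Rims2 reads in sham (76.5 to 81.9) and 78.8% in BCP (75.2 to 82.2). The split of reads between the groups was thus much the same in both libraries. Rims1 sites ran from 28444521 to 28732920 on chromosome 9, with 1 circRNA apart from the other 9. RefSeq places Rims1 on the minus strand of its GRCr8 assembly, so that the larger coordinate, here called the end, is the 5′ side of a Rims1 circle. The strand of Rims2 was not used here.

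**Figure D3:**
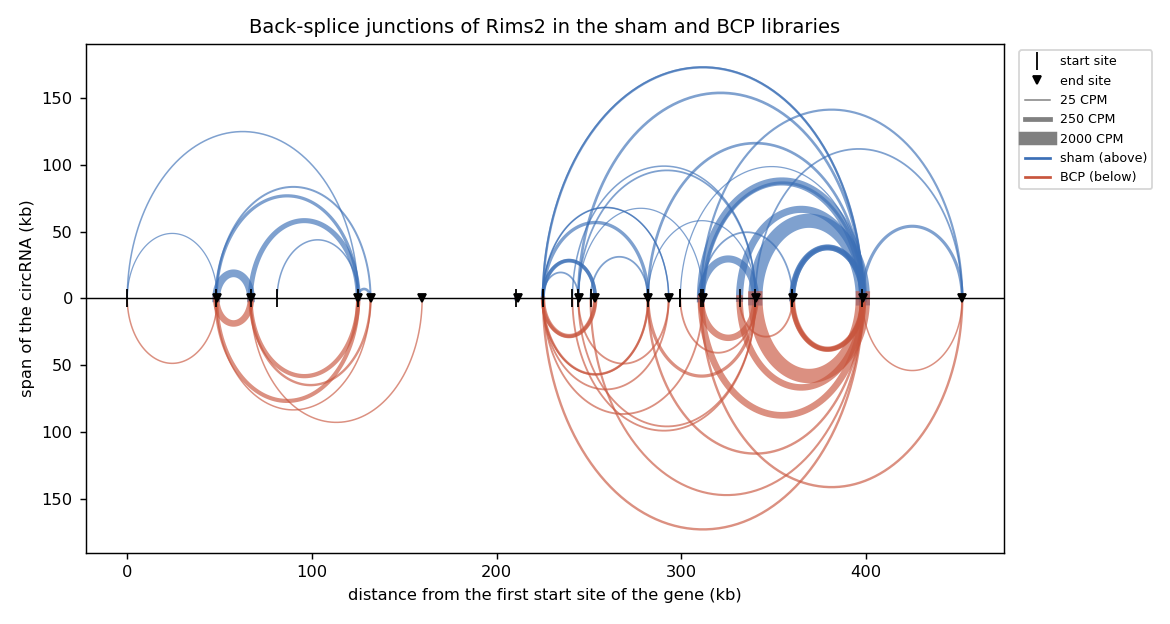
Each arc joins the start and end of a Rims2 circRNA, placed by distance from the first start site (x axis, kb), with its height equal to the span (y axis, kb) and its width scaled to the square root of CPM; sham is drawn above and BCP below the line. In both libraries the thickest arc and the next thickest end at a common site in the last group, and no arc crosses from the first group to the others.

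The most used back-splice site of both genes was an end of Rims2 at 78520474. It was joined to 13 different starts, more than any other of the 8938 ends in the table, of which 79.3% were used by a single circRNA and the next had 10 starts. These 13 circRNAs held 538 reads in sham and 325 in BCP, 61.2% of Rims2 reads in sham (57.9 to 64.4) and 59.3% in BCP (55.1 to 63.5). In sham 12 of the 13 were listed, in BCP 9, and 8 in both. The intervals of its share overlapped, while its thin partners were not all listed in both libraries.

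A single circRNA led at this site. The circle from 78462288 to 78520474 had 251 reads in sham and 180 in BCP, 2221 and 2283 CPM, a BCP over sham ratio of 1.03 (0.844 to 1.25). It was 28.6% of Rims2 reads in sham (25.6 to 31.7) and 32.8% in BCP (28.9 to 37.0), and ranked 20 by reads in the table. Next at this end came the circle from 78432827 with 83 and 39 reads in sham and BCP (734 and 495 CPM, 1.48-fold lower, 1.00 to 2.23) and that from 78453734 with 64 and 37 reads (566 and 469 CPM). The leading circle had close levels in both libraries, and those 2 had lower levels in BCP without meeting the size rule.

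Close starts were joined to the same end. At 78482254, 78482370 and 78482373, 3 starts, 116 and 3 bp apart, gave circles to 78520474 with 45 and 17, 38 and 26, and 15 and 12 reads in sham and BCP. The first was 1.85-fold lower in BCP (1.04 to 3.44), whereas the ratios of the other pair were 0.981 (0.572 to 1.66) and 1.15 (0.490 to 2.62). Whether the alignment tells the last 2 starts apart was not tested. Another pair of starts, 78347124 and 78347306, lies 182 bp apart, with 5 ends each and 4 of these in common. To the end at 78375555 they gave 15 and 9 reads and 17 and 17 reads. From the second of them, circles to 78404200 had 14 and 5 reads and to 78520474 had 7 and 5. Farther on, 78404132 to 78520474 had 9 and 5 reads. None of these met the size rule.

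**Figure D4:**
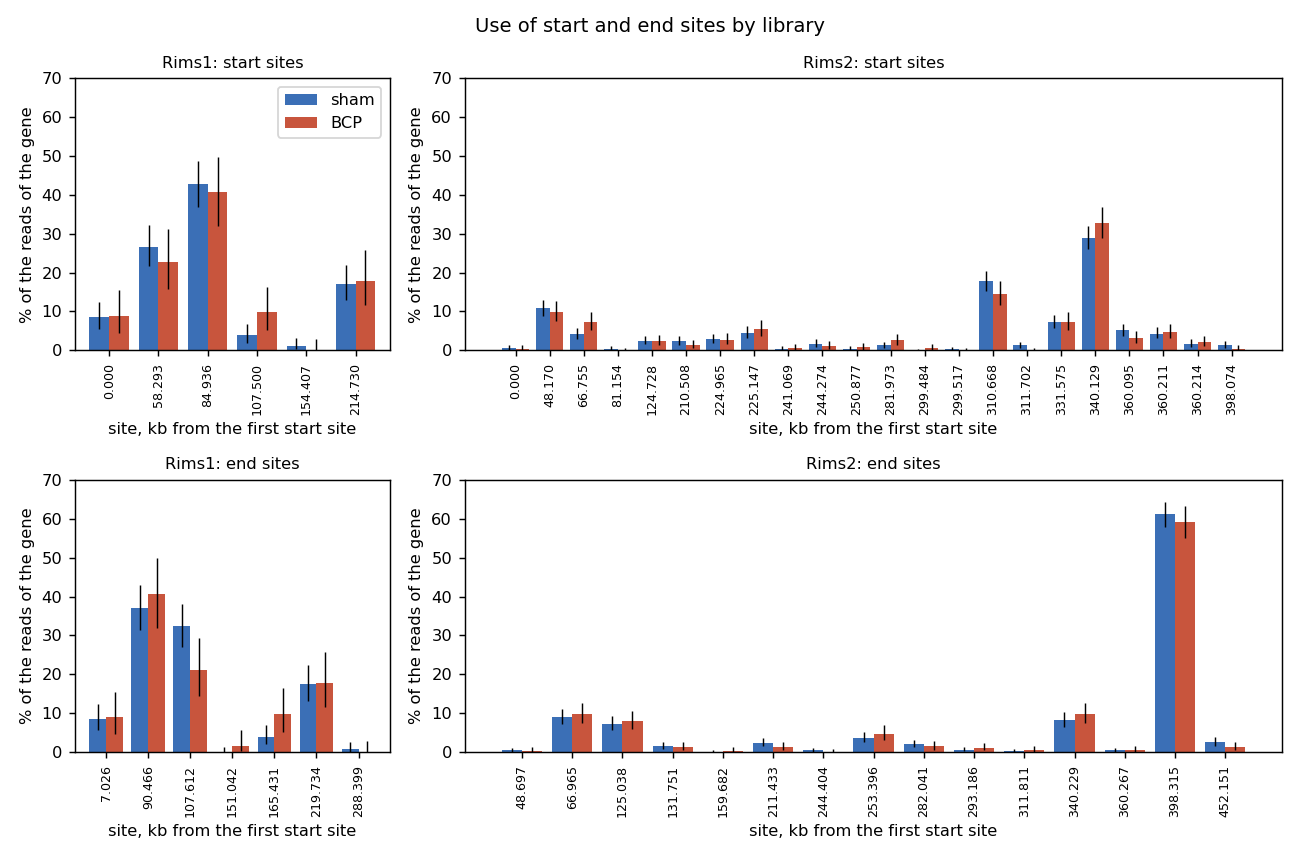
Share of the reads of each gene (y axis, %) at each start and end site (x axis, kb from the first start site), for sham and BCP; bars are shares and lines 95% exact binomial intervals. The Rims2 end with 61.2% of reads in sham and 59.3% in BCP stands above all others, and the Rims1 end with 32.4% in sham and 21.1% in BCP shows the widest gap between libraries in percentage points among the sites drawn.

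After that end, the most used ends of Rims2 were 78189124, with 79 and 54 reads in sham and BCP, and 78462388, with 72 and 54. Its most used starts were 78462288 (255 and 180 reads), 78432827 (156 and 80) and 78170329 (95 and 54). Several sites faced each other: 12 of 22 starts had an end of the gene at a larger coordinate within 1000 bp, enclosing 54 to 926 bp. The stretch of 101 bp from 78462288 to 78462388, for instance, held the start of circles with 255 and 180 reads and the end of others with 72 and 54 reads, of which 63 and 36 belonged to the circle from 78432827 to 78462388. The leading circle begins within the last 101 bp of that circle, and a further one, from 78432827 to 78520474 (83 and 39 reads), spans both, so these 3 circles use 4 sites. Whether such stretches are exons was not examined, since no annotation of this build was used. For 4 of the facing pairs the stretch was also listed as a circle of its own.

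In the first group of Rims2, a short circle made of shared sites held a larger share in BCP. Starts 78170329 and 78188914 and ends 78189124 and 78247197 were joined in all 4 ways. The outer start with the inner end had 75 reads in sham and 37 in BCP (664 and 469 CPM), 60.5% (51.3 to 69.1) and 43.5% (32.8 to 54.7) of the 4 circles. Its neighbour, the 211 bp circle from 78188914 to 78189124, had 4 and 17 reads in sham and BCP (35.4 and 216 CPM), 3.23% (0.886 to 8.05) and 20.0% (12.1 to 30.1) of the 4. With a ratio of 6.09 (1.99 to 24.9) it met the size rule as higher in BCP, while the end it uses did not meet it (79 and 54 reads, ratio 0.980, 0.680 to 1.40). Nor did its start, which had 36 and 40 reads (ratio 1.59, 0.990 to 2.57). The other pair had 13 and 15 reads (78170329 to 78247197) and 32 and 16 reads (78188914 to 78247197). A further short circle, 311 bp from 78246887 to 78247197, had 13 reads in each library.

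Farther along Rims2, the other circRNA that was higher ran from 78404132 to 78462388 and had 2 and 9 reads in sham and BCP, a ratio of 6.45 with a wide interval (1.34 to 61.4). The lower one, from 78433861 to 78520474, had 11 sham reads and was at 0 in BCP, so no fold is given. It is the sole circle of its start, which is also the start that was lower. Circles to the last end of the gene, at 78574310, had 6 and 5 reads from 78432827 and 12 and 2 reads from 78520233 (4.18-fold lower, 0.932 to 38.5), and did not meet the rule.

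Both Rims1 circRNAs that were lower in BCP came from a set of 4 circles made from 2 starts (28502814 and 28529457) and 2 ends (28534987 and 28552133). The inner circle, 28529457 to 28534987, had 71 reads in sham and 22 in BCP (628 and 279 CPM), 2.25-fold lower in BCP (1.38 to 3.81). The outer circle, 28502814 to 28552133, had 42 sham reads (372 CPM) and was at 0 in BCP. The other 2 circles of the set did not meet the rule: 28502814 to 28534987 had 33 and 28 reads (ratio 1.22, 0.708 to 2.08) and 28529457 to 28552133 had 49 and 26 (ratio 0.761, 0.454 to 1.25). All 4 sites thus remained in use in BCP, and of the 4 circles only the outer one was not listed there.

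**Figure D5:**
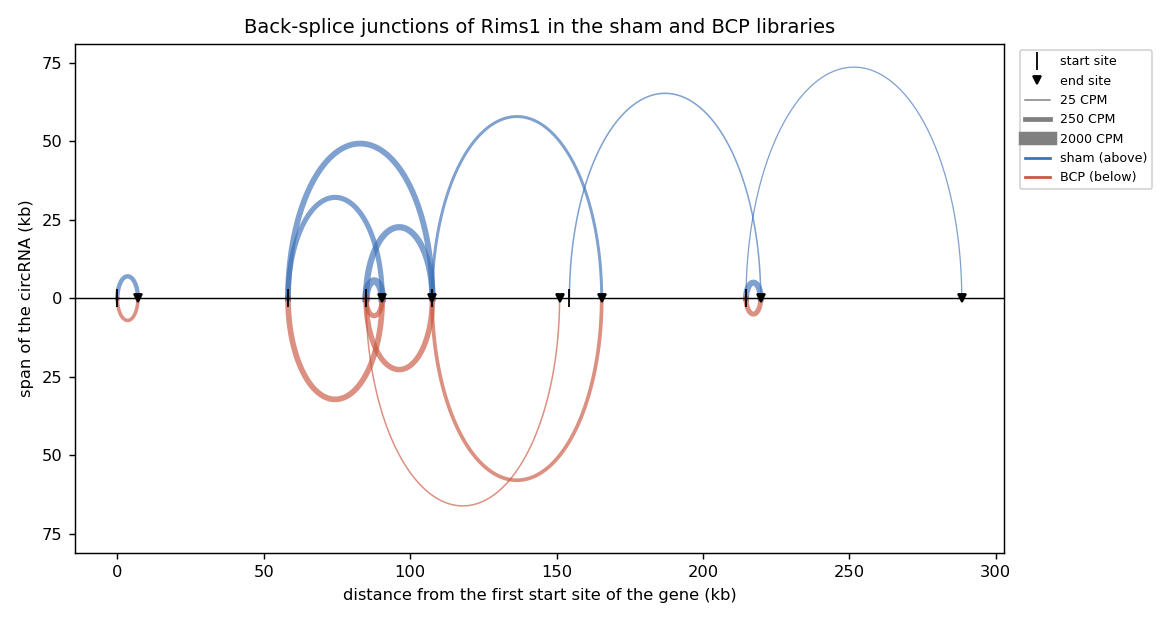
Arcs of the Rims1 circRNAs, drawn as for Rims2 (x axis, kb from the first start site; y axis, span in kb; width scaled to the square root of CPM; sham above, BCP below). The arc with the longest span (49320 bp) of the 4 circles that share 2 starts and 2 ends is present in sham, with 42 reads, and not in BCP.

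Over this set, the shares in sham were 36.4% for the inner circle (29.7 to 43.6), 21.5% for the outer one (16.0 to 28.0), 16.9% (11.9 to 22.9) for the circle from 28502814 to 28534987 and 25.1% (19.2 to 31.8) for that from 28529457 to 28552133. In BCP they were 28.9% (19.1 to 40.5), 0, 36.8% (26.1 to 48.7) and 34.2% (23.7 to 46.0). The shares over sites moved with these. Reads at the end 28552133 went from 91 to 26, a ratio of 0.410 (0.254 to 0.639), and it was the end, of the 15 counted above, that met the size rule as lower. The most used Rims1 end, 28534987, had 104 and 50 reads, 37.0% of the gene in sham (31.4 to 42.9) and 40.7% in BCP (31.9 to 49.9), and the end 28664255 had 49 and 22. The most used start, 28529457, had 120 and 50 reads, 42.7% in sham (36.8 to 48.7) and 40.7% in BCP (31.9 to 49.9), followed by 28502814 (75 and 28) and 28659251 (48 and 22).

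The remaining Rims1 circles with at least 10 reads lay outside that set. From 28659251 to 28664255 (5005 bp) there were 46 and 22 reads in sham and BCP, from 28444521 to 28451547 (7027 bp) 24 and 11, and from 28552021 to 28609952 (57932 bp) 11 and 12. Their ratios were 0.686 (0.393 to 1.16), 0.657 (0.291 to 1.39) and 1.56 (0.632 to 3.91), and none met the rule. The 3 Rims1 circRNAs under 10 reads had 2 or 3 reads, each in a single library.

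The 26 circRNAs of Rims2 under 10 reads had 2 to 9 reads over both libraries. They were listed in both libraries in 5 cases, in sham alone in 13 and in BCP alone in 8. Over the 8097 circRNAs of the table under 10 reads these were 1535, 4050 and 2512, much the same split. Together with those of Rims1 they held the rest of the member reads, since the 29 with at least 10 reads held 93.7%. The most frequent of the thin ones, picked after their values were seen, were 78246887 to 78253910 and 78366433 to 78520474, with 9 reads each in sham and none listed in BCP. Almost every circRNA of Rims2 shared a site with another: 47 of 48 shared a start or an end and 36 shared both, beside 59.9% and 16.6% of all circRNAs. In Rims1 these were 8 and 5 of 10.

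The median log2 ratio (BCP over sham, pseudocount of 0.5 reads) of the 29 members was -0.27, beside 0.02 over all 3502 circRNAs with at least 10 reads. It was -0.53 for the 7 of Rims1 and -0.22 for the 22 of Rims2. The level in BCP was below that in sham for 18 of the 29 members, beside 49.8% in the table. Median-of-ratios and TMM scaling moved all log2 ratios by -0.10 and -0.12, and 2 members changed sign under each. The members share sites, so they are not independent.

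Among the 125 host genes with at least 10 circRNAs, 14 had a lower ratio of summed reads than Rims1 and 47 a lower ratio than Rims2. The closest to Rims1 in log2 ratio over these 2 libraries were Large (55 and 24 reads in sham and BCP), Arhgap26 (108 and 48) and Sptan1 (125 and 53). Closest to Rims2 were Npepo (100 and 62), Elf2 (1073 and 662) and Epha5 (143 and 90). The farthest of these, Sptan1 and Epha5, differed in log2 ratio by 0.041 from Rims1 and by 0.016 from Rims2, and a likeness over 2 libraries is a likeness in 1 ratio.

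Other genes of the active zone and of vesicle release showed no common direction in their summed reads. Of 64 listed by name, 38 hosted 152 circRNAs with 778 and 562 reads in sham and BCP, at a ratio of 1.04 (0.928 to 1.16). The RIM relatives Rims3 and Rims4 and the scaffold gene Bsn had none listed. Of 23 such genes with 10 or more reads, 11 had a ratio below 1, and the size rule was met by 2 as higher and by 2 as lower, close to the background of host genes given above. Taken singly, 32 circRNAs of these genes had as many reads, of which 6 were higher and 0 lower. Over all circRNAs of the table with as many reads these were 7.82% and 7.42%. The 6 and 0 are small counts at column totals, and were not made with the other scalings. Both genes that were lower by summed reads encode members of the Munc13 family of vesicle priming proteins. Unc13c had 60 and 14 reads (2.99-fold lower, 1.65 to 5.79), and Unc13b had 11 sham reads and was at 0 in BCP. Unc13a, of the same family, had no circRNA listed. The higher ones were Rab3ip, which encodes a protein that binds Rab3 (4 and 13 reads, ratio 4.66, 1.44 to 19.6), and the calcium sensor gene Syt1 (4 and 10 reads, ratio 3.58, 1.03 to 15.7), the second of which was not higher by the rule with median-of-ratios or TMM scaling. With most reads, the RIM-binding scaffold gene Erc1 (108 and 103 reads, ratio 1.37, 1.03 to 1.81), the potassium channel gene Kcnma1 (52 and 54) and the calcium channel gene Cacna1b (56 and 49) did not meet the rule. The median log2 ratio of the 23 was 0.07, beside 0.02 over all host genes with at least 10 reads, and those scalings move both by the shifts given above, which takes both below 0.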

How the data were processed

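RNA came from spinal cord, by the tissue label. The source label names the injected cell line instead. Per the labels' protocols, ribosomal RNA was removed and RNase R (16 units, 15 min) applied. The authors deposited back-splice read counts per circRNA with 1 column per library. The deposited columns headed TPM are CPM: all 9003 (sham) and 7375 (BCP) values of listed circRNAs equal the count over the column total within 0.001 CPM. The submitters' processing notes name CASAVA 1.8, BWA and rn6. No circRNA caller was given in the sources used here.

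The members, lists and rules were chosen with earlier results of these data known. The gene field was split at commas. In 15 Rims2 rows it also held small RNA family names. For other hosts such names were dropped, and so were 11 names on several chromosomes or over 3 Mb. Ratios are of reads scaled to column totals, with conditional exact binomial (Clopper-Pearson) intervals, and shares have exact binomial intervals (Python 3.11.15, scipy 1.17.1). The size rule asked for at least 10 reads, a 2-fold ratio and an interval excluding 1. All members with at least 10 reads were named, with the 3 most used starts and ends per gene, active zone genes that met the rule or had most reads, and the 3 nearest hosts by ratio. Scaling alternatives used DESeq2 1.42.0 and edgeR 4.0.16.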

Additional observations from a re-analysis of the deposited data

How the results depend on the processing

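The ratios of the summed reads kept their direction and stayed short of the size rule under both scalings, with circRNAs listed in both libraries only, with rows that hold the name alone and without the most abundant circRNA, at 0.579 to 0.741 for Rims1 and 0.824 to 0.917 for Rims2. Members lower in BCP numbered 3, and 5 with TMM scaling or a minimum of 5 reads, 4 with median-of-ratios scaling or a 1.5-fold limit, and 2 with a 3-fold limit or a minimum of 20 reads. Members higher numbered 2, and 3 with a minimum of 5 reads and 1 with 20. Over the table, 274 were higher and 260 lower, which became 690 and 561 with a minimum of 5 reads and 139 and 115 with 20. The median log2 ratio of the members was -0.24 with a pseudocount of 2 reads, -0.37 with median-of-ratios and -0.39 with TMM scaling. Taking counts of 0 as 1 read, chosen after seeing the data, left 2 and 3 members, and 226 circRNAs lower in the table. With circRNAs each counted once in place of reads, the most used start held 22.2% and 42.9% in sham and BCP for Rims1 and 5.00% and 2.94% in sham and BCP for Rims2, and the most used end 22.2% and 28.6% for Rims1 and 30.0% and 26.5% for Rims2. Without the most abundant circRNA, the shares of reads at these starts were 23.3% and 27.7% for Rims1 and 0.637% and 0% for Rims2, and at these ends 15.7% and 27.7% for Rims1 and 45.7% and 39.4% for Rims2, so the Rims2 start rests on 1 circRNA. No paired analysis was possible because each group has 1 library. Leaving out replicates was not possible for the same reason. Taken singly, members under 10 reads entered only the shares with circRNAs each counted once and, from 5 reads, the comparison with that minimum.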
